A study of Mus musculus with 29 samples.

Results

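The regions described here are 42 bins of 1000 bp, of 53499 autosomal bins that could be read, in which mouse embryonic stem cells (ESCs) carried little CpG methylation in serum with LIF (S/L) and high methylation after long culture in the media called a2i/L and PKCi/L. A bin could be read when it held at least 3 CpGs with at least 5 reads in each of 10 libraries, namely S/L at passages 10 and 20 (p10 and p20, 3 libraries each) and a2i/L and PKCi/L at p20 (2 libraries each). The level of a bin is the share of methylated reads among all reads over those CpGs. A read that covers several of these CpGs counts once for each, so the read numbers of bins are sums over CpGs. The 42 bins were selected on measured levels: their mean was 30% or less at both S/L passages and 50% or more in each of the 4 a2i/L and PKCi/L p20 libraries. Their low S/L levels and high a2i/L and PKCi/L p20 levels are therefore the rule and are given only as a description. The bins held 193 of the 587289 CpGs read. In all, 26537 bins met the S/L limits, so that 26495 other bins were low in S/L by the same limits. Within the limits these other bins lay lower, with means of 3.98% at S/L p10 and 2.91% at S/L p20. The 42 bins had 22.4 and 15.2%. Of the other bins, 13625 had 10 or more CpGs, so they are not a matched set.

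The assay was RRBS, bisulfite sequencing of a reduced representation of the genome, which cuts DNA at a CpG-containing site and so reads mostly the CpG-rich part of the genome. Of the male ESC lines, J-34, J-35 and also J-37 entered S/L and 2i/L at passage 4, and a2i/L and PKCi/L were entered at the same passage. At each time point, S/L, 2i/L and the returned p23 cultures had 3 libraries, 1 per line. The p23 and p30 groups were 2i/L cells moved back to S/L for 3 or 10 passages after 16 passages in 2i/L, and p30 had 2 libraries. At p20, a2i/L and PKCi/L came from J-34 and J-35 only. Single libraries came from J-34 in a2i/L p10, PD and CHIR, and from J-35 in PKCi/L p10. The PD, CHIR and p10 libraries came after 6 passages in the medium and those of p20 after 16. The Mek1/2 DKO library came from clonal male induced pluripotent cells (iPSCs) made from Mek1fl/fl;Mek2-/- fibroblasts, in which Cre removed the floxed Mek1 allele; these cells stayed in S/L on irradiated feeder fibroblasts. Neonatal keratinocytes gave 2 libraries labelled 2i/L and male and 1 wild-type library labelled female. The labels do not give the composition of a2i/L or PKCi/L, or the route from 2i/L culture to keratinocytes. One p30 library is titled J-35 while its cell type says J-34, and it is called here the p30 library titled J-35.

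DNA methylation in mammals is placed on CpGs by de novo enzymes and copied at each division by a maintenance enzyme with its cofactor; when copying fails, methylation is diluted by division. CpG-dense promoters usually stay unmethylated, while CpGs between and within genes are mostly methylated in somatic cells. The usual 2i/L medium pairs a Mek1/2 inhibitor with a Gsk3 inhibitor, for which PD and CHIR are the common short names, and ESCs in it lose much of their methylation. In this field, a2i usually denotes a medium in which a Src inhibitor takes the place of the Mek1/2 inhibitor, and PKCi denotes a protein kinase C inhibitor. Cell types could not be checked against expression markers, since methylation alone was measured.

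Depth ran from 8359802 to 22433006 reads over CpGs per library, and the members had 0.701 to 0.969 times the median reads of all bins in the same library. Coverage fell into 3 sets. The share of CpGs with at least 5 reads that a pair of libraries had in common was 76.8 to 83.1% within a2i/L p20, PKCi/L p20 and p30, and 81.7 to 85.0% within the set of p23, S/L p20 and 2i/L p20. It was 64.9 to 70.5% between these sets. The p10, PD, CHIR and Mek1/2 DKO libraries formed the other set, at 76.7 to 86.3%. This set shared 62.2 to 69.7% with a2i/L p20, PKCi/L p20 and p30. With p23, S/L p20 and 2i/L p20 it shared 66.5 to 79.7%, which overlaps its own range, so these sets are less clearly apart. Every comparison of a2i/L or PKCi/L p20 with S/L p20, of p30 with p23, and of p20 with p10 libraries thus crosses sets. Medium or passage cannot be told apart from the coverage set there. The p10 libraries of S/L, 2i/L, a2i/L and PKCi/L lie in the same set.

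One member stood apart in depth. The bin at chr16:61056181-61056202 (mm9, 5 CpGs) held 6058 to 14115 reads in the p10, PD, CHIR and Mek1/2 DKO libraries, 204 to 324 in the p23, S/L p20 and 2i/L p20 libraries, and 40 to 121 in the a2i/L p20, PKCi/L p20 and p30 libraries. Its level rose from set to set as the depth fell. It lay between 0.94 and 4.85% in the deep libraries, between 8.82 and 31.0% in the middle set and between 52.9 and 68.9% in the shallow set. In the keratinocytes, with 30 to 66 reads, it stood at 71.2 to 83.3%. Its highest library held 50.1 times its median number of reads, a ratio that ran from 1.30 to 2.57 in the other members with a p30 level; 3 of the 53499 bins passed a ratio of 10. The part of this depth in the bin's level was not tested. The counts of calls are also given without it; the 41 other bins had a mean of 47.9% at p30.

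The 42 bins were short and poor in CpGs. They held 3 to 9 CpGs, 14 of them 3 and 12 of them 4, and the first and last CpG lay 14 to 701 bp apart, with a median of 101 bp. The thinnest rule library had 16 to 124 reads, with a median of 38. The mean of the 4 a2i/L and PKCi/L p20 libraries exceeded mean S/L p20 by 35.8 to 75.3 points, with a median of 50.7 points. Of the 193 CpGs, 184 were higher in each of the 4 libraries than in all 3 S/L p20 libraries, 121 were at 50% or more in all 4, and 145 had a mean of 30% or less in S/L p10. In 41 of the 42 bins every CpG had the higher mean in a2i/L and PKCi/L, and in 22 every CpG had a mean of 50% or more there. The bins lay on every autosome but chromosome 17, with 7 on chromosome 2, and 0 of the 279 readable bins of chromosome X met the limits.

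**Figure D1:**
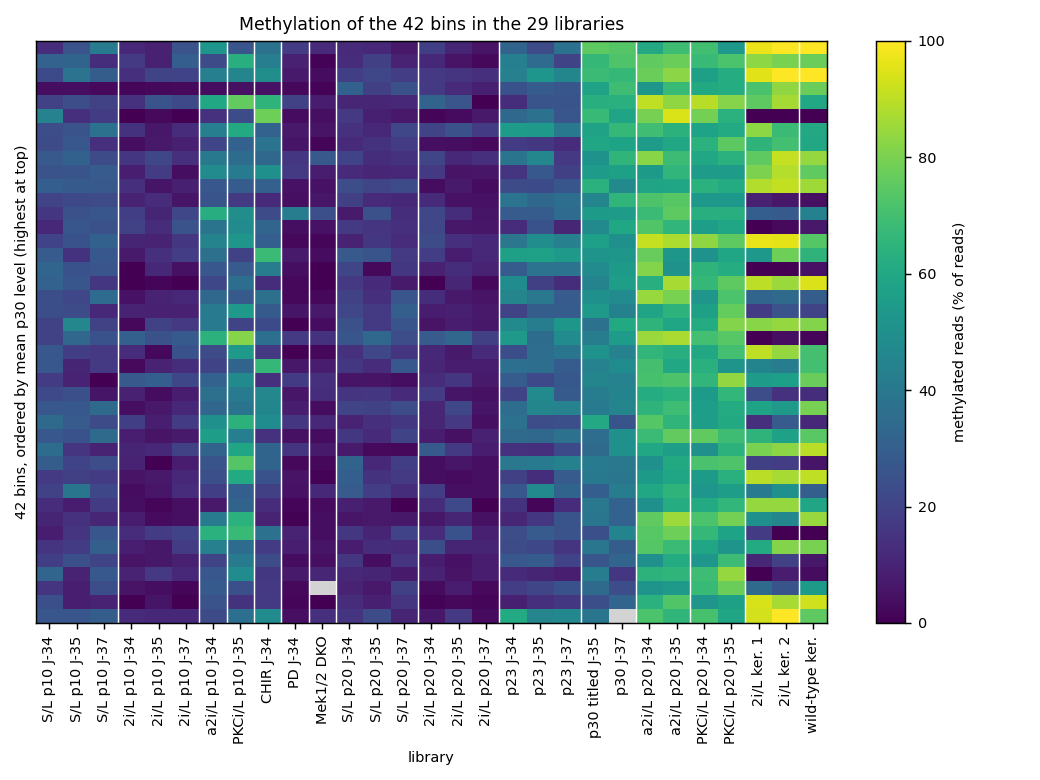
Methylation of the 42 bins (rows, highest mean p30 level at the top) in the 29 libraries (columns, white lines between sets of groups). Colour is the share of methylated reads in percent and grey marks fewer than 10 reads; the rows are dark in 2i/L, PD and Mek1/2 DKO, intermediate at p23, and brighter at p30, and in keratinocytes they split into high and low bins.

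The bin with the largest difference was chr13:51324370-51324502 (3 CpGs). Its S/L p20 levels were 10.8% in J-34, 10.8% in J-35 and 11.1% in J-37, its a2i/L p20 levels were 90.2% in J-34 and 83.3% in J-35, and its PKCi/L p20 levels were 89.3% in J-34 and 81.8% in J-35. It was already high at p10, with 60% in a2i/L (Wilson 95% interval 45.5 to 73.0) and 75.9% in PKCi/L (57.9 to 87.8), against 19.2, 23.8 and 19.5% in S/L p10. Of the other 4 largest differences, the bin at chr10:44161137-44161619 (8 CpGs) ran from 10.0 to 16.3% in S/L p20 and from 75.3 to 91.4% in the 4 a2i/L and PKCi/L p20 libraries, called here the inhibitor libraries. The bin at chr3:40487336-40487432 (7 CpGs) ran from 6.17 to 6.86% in S/L p20 and from 71.7 to 85.3% in the inhibitor libraries. The bin at chr16:18416606-18416634 (3 CpGs, as few as 17 reads) ran from 6.67 to 16.7% and from 64.0 to 94.4%. The bin at chr2:170113911-170113997 (4 CpGs) ran from 3.70 to 5.56% and from 65.9 to 83.9%. Just inside the limit lay 3 bins whose lowest inhibitor library stood at 50%: chr5:86392150-86392215, chr6:34817438-34817567 and chr11:21907230-21907313. Just outside lay chr12:103654716-103654889 at 49.3%, chr3:37485108-37485230 at 49.0% and chr9:57269283-57269332 at 48.9%.

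Within the a2i/L and PKCi/L p20 libraries that chose them, the bins kept a spread. The mean over the bins was 68.4% ± 0.86 (SD, n = 2) in a2i/L and 64.4% ± 2.53 (SD, n = 2) in PKCi/L. In the same line, a2i/L exceeded PKCi/L by a median of 5.79 points in J-34 and 5.70 points in J-35, and single bins ran from 23.5 points lower to 32.7 points higher. The number of inhibitor libraries at 50% or more did not stop at 4: among bins low in S/L, 203 bins had 1 such library, 120 had 2 and 39 had 3. The median p30 level was 0.906% in the 26133 low bins with no such library, 37.1% with 1, 42.4% with 2, 44.0% with 3 and 48.9% in the 42 bins. The bins with no such library also started far lower, with medians of 0.709% at S/L p10 and 0.654% at S/L p20. With 1, 2 and 3 such libraries the S/L p20 medians were 15.7, 15.9 and 15.3%, against 14.9% in the 42 bins. The p30 libraries share the coverage set of the inhibitor libraries counted here.

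In 2i/L, PD and Mek1/2 DKO cells the bins were low. The rule used none of these libraries, but it chose bins low in S/L, so low levels here are not a separate result. The mean over the bins was 10.8% ± 1.71 (SD, n = 3) in 2i/L p10, 10.3% ± 3.11 (SD, n = 3) in 2i/L p20, 7.67% in PD and 6.44% in Mek1/2 DKO, against 22.4% ± 0.46 (SD, n = 3) at p10 and 15.2% ± 1.24 (SD, n = 3) at p20 in S/L. Every 2i/L p20 library was at 30% or less in 40 of 42 bins (69.6% of all bins), PD in 41 of 42 (72.1%) and Mek1/2 DKO in 41 of the 41 bins it covered with at least 10 reads (87.8%). The Mek1/2 DKO library had no reads in the remaining bin, chr3:58791206-58791237. Among the other bins low in S/L, each 2i/L p20, PD and Mek1/2 DKO library was at 30% or less in at least 99.9%. Between 2i/L p20 and 2i/L p10, a contrast that crosses coverage sets, limma called 0 bins higher and 0 lower. Of all 45622 bins in the fit, 0.00219% were called higher and 0.0833% lower. At an unadjusted p under 0.05, 2 members were higher (2.96% of all bins) and 2 lower (9.3%), and 1 of the 2 higher was the bin of uneven depth. The quasi-binomial model also called 0 members in each direction, where it called 0.00658% of all bins higher and 1.54% lower. Every 2i/L p20 library lay above every 2i/L p10 library in 2 of the 34 members in the fit, and in 3.68% of all bins; the reverse order held in 3 members and in 8.67% of all bins. The median difference was -1.29 points in the members and -0.21 points in all bins. The remaining 8 members were outside the fit, which asked for coverage in 21 libraries.

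**Figure D2:**
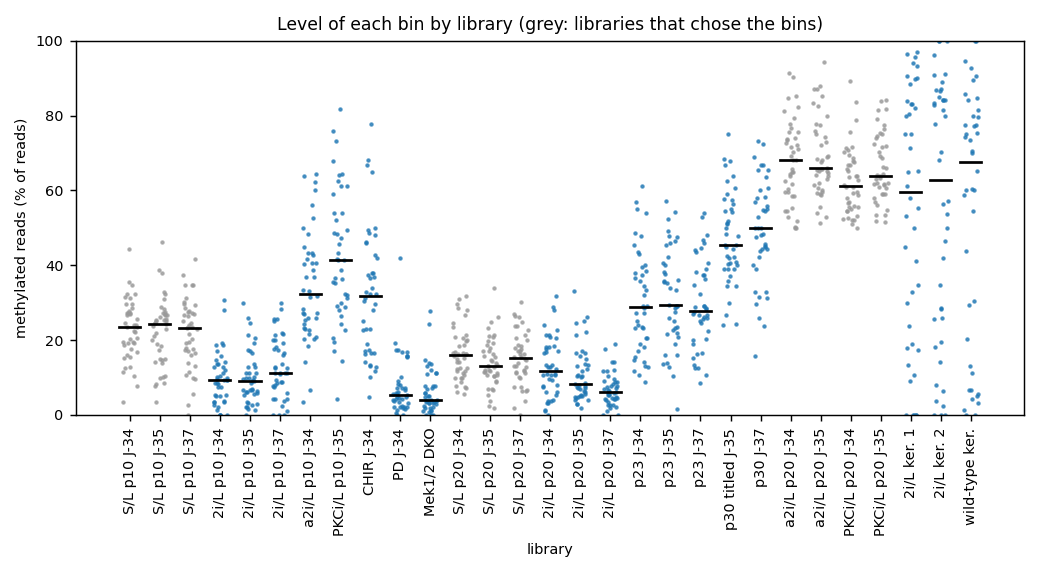
Level of each of the 42 bins (points, percent methylated reads) in each library, with the median as a bar; grey points mark the libraries that chose the bins. Outside these, the medians were 6.03 to 11.7% in 2i/L p20, 45.4 and 50% at p30, and 59.5 to 67.6% in keratinocytes, where single bins reached from 0 to 100%.

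The single a2i/L and PKCi/L libraries at p10 were intermediate. The mean over the bins was 34.4% in a2i/L p10 and 42.4% in PKCi/L p10. By then 7 of 42 bins had reached 50% in a2i/L and 13 in PKCi/L, while 19 and 12 were still at 30% or less. In all bins, 38.2 and 42.4% had reached 50%, and 55.1 and 52.3% were at 30% or less. Against S/L p10 of the same line, which shares the coverage set, a2i/L p10 was higher in 27 of 42 bins with a median of 8.81 points, and PKCi/L p10 in 39 of 42 with a median of 17.6 points. The same differences had a median of -0.15 and 0.0 points in the other bins low in S/L. S/L p10 was held at 30% or less by the rule, so that these differences are partly a matter of choice. Against 2i/L p10, which the rule did not use, a2i/L p10 lay above all 3 libraries in 40 of 42 bins, where 65.3% of all bins did, and PKCi/L p10 in 42 of 42, where 71.3% of all bins did. Later in the same line, all 42 bins were higher in a2i/L p20 than in a2i/L p10 of J-34 (median 33.95 points) and 37 of 42 in PKCi/L p20 than p10 of J-35 (median 23.7 points). The p20 libraries were chosen to be high, and these comparisons cross coverage sets. Over all bins, the mean was 34.2% at p10 and 41.7% at p20 in a2i/L of J-34. In PKCi/L of J-35 it was 39.3 and 42.7%. With 1 library a group, none of these p10 differences has a replicate check.

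By the lower of the p10 libraries, the 3 highest members in the fit were chr2:180024368-180024623, chr11:84759114-84759165 and the chr13 bin described above. The chromosome 2 bin (8 CpGs) stood at 64.4% in a2i/L p10 (58.3 to 70.1) and at 81.7% in PKCi/L p10 (75.5 to 86.6), while S/L p10 had 19.4, 32.9 and 25.2%. The chromosome 11 bin (4 CpGs) stood at 63.9% (52.4 to 74.0) and 67.9% (54.5 to 78.9), against 7.69, 15.0 and 26.9%. By the higher of the p10 libraries, the 3 lowest members in the fit were the chr16 bin of uneven depth, chr6:33197722-33197934 and chr10:33906494-33906610. The chromosome 6 bin (4 CpGs) had 25.4% in a2i/L p10 (16.1 to 37.8) and 14.5% in PKCi/L p10 (7.83 to 25.3), but 63.8 and 73.0% in a2i/L p20 and 52.1 and 56.9% in PKCi/L p20. The chromosome 10 bin (7 CpGs) had 25.8% (20.1 to 32.5) and 17.0% (11.1 to 25.0), but 72.1 and 74.2% in a2i/L p20 and 53.3 and 53.3% in PKCi/L p20. Over the 42 bins the a2i/L p10 and PKCi/L p10 levels had a Pearson r of 0.520 and a Spearman rho of 0.442, a description over bins that share libraries.

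In CHIR, the other single compound, the bins had 32.5% on average, with 5 at 50% or more (42.7% of all bins) and 19 at 30% or less (51.8%). It lay above S/L p10 of J-34 by a median of 7.27 points, against 0.0 points in the other bins low in S/L. S/L p10 was held low by the rule, so that this difference is partly a matter of choice. CHIR lay above all 3 libraries of 2i/L p10 in 37 of 42 bins, where 70.7% of all bins did. The bin at chr16:18416606-18416634 had the value 77.8% in CHIR (54.8 to 91.0, from 18 reads summed over its CpGs). It had only 14.3% in a2i/L p10 and 22.7% in PKCi/L p10. Across the bins, CHIR and PKCi/L p10 had an r of 0.111 and a rho of 0.111 (n = 42).

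Returned cells were grown without a2i/L or PKCi/L, and neither p23 nor p30 entered the rule. The p30 libraries share the coverage set of the 4 libraries that chose the bins as high. Their levels therefore cannot tell a gain without these media from an effect of the coverage set. The p23 libraries lie in the set of S/L p20 and 2i/L p20. The mean over the bins was 30.4% ± 0.88 (SD, n = 3) at p23 and 48.3% ± 1.25 (SD, n = 2) at p30, against 4.77 and 5.23% in the other bins low in S/L, and 38.3 and 40.8% in all bins. Most of these other low bins also started lower in S/L. The 203 low bins with 1 inhibitor library at 50% or more started near the members. Their median level was 24.9% at S/L p10 and 15.7% at S/L p20, against 23.4 and 14.9% in the 42 bins. At p23 their median was 27.9%, against 30.9% in the 42 bins, and at p30 it was 37.1%, against 48.9%. Of the 41 bins with at least 10 reads in both p30 libraries, 18 had a mean of 50% or more, 19 lay between the limits and 4 were at 30% or less; at p23 the counts were 2, 20 and 20 of 42. In all bins the shares were 45.4, 5.93 and 48.7% at p30 and 43.5, 6.93 and 49.5% at p23, so the share of members at 50% or more at p30 was near that of all bins. The bin without a p30 mean was chr10:58930394-58930407, with 9 reads in the p30 library of J-37; it stood at 38.9% in the p30 library titled J-35 and at 61.1, 45.5 and 46.7% at p23.

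Between 2i/L p20 and p30, limma called 32 of the 34 members in the fit higher at p30 (adjusted p under 0.05 and at least 20 points), and 46.8% of all bins. It called 0 lower, against 0.00438% of all bins, and 0 were lower at an unadjusted p under 0.05 (0.509% of all bins) or called lower by the quasi-binomial model (0.00438%). Without the bin of uneven depth, 31 of 33 were called higher. The quasi-binomial model called 32 higher, and 46.8% of all bins, and 34 were higher at an unadjusted p under 0.05, as were 60.9% of all bins. The median difference was 37.3 points in the members and 12.6 points in all bins, and the p30 libraries lay above all 2i/L p20 libraries in 34 of 34 members and in 63.0% of all bins, and below them in 0 members and in 1.77% of all bins. This contrast crosses the coverage sets. Between 2i/L p20 and p23, within 1 set, limma called 15 of 34 higher, against 45.9% of all bins, so the share of members called was near the background. It called 0 lower, as in all bins (0.0%), and 0 were lower at an unadjusted p under 0.05 (0.978% of all bins) or called lower by the quasi-binomial model (0.0%). Without the bin of uneven depth, 15 of 33 were called higher. The quasi-binomial model called 15 higher, and 46.0% of all bins, and 28 were higher at an unadjusted p under 0.05, as were 60.2% of all bins. The median difference was 18.8 points in the members and 11.9 points in all bins, and every p23 library lay above every 2i/L p20 library in 26 of 34 members and in 60.5% of all bins, and below in 0 members and in 0.918% of all bins.

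From p23 to p30, the level was higher in 32 of 34 members, with a median difference of 16.6 points, whereas the median over all bins was 0.27 points. Every p30 library lay above every p23 library in 24 of 34 members and in 20.7% of all bins; the reverse order was seen in 1 member and in 9.43% of all bins. Limma called 3 members higher, where 0.221% of all bins were called, and 0 lower, where 0.0263% were. At an unadjusted p under 0.05, 18 members were higher, as were 10.1% of all bins, and 0 were lower, against 2.35%. The quasi-binomial model, added after the data were seen, called 12 higher and 0 lower, and 1.28 and 0.156% of all bins. The count of 3 fell to 2 without the bin of uneven depth, to 0 without either p30 library, to 1 without any single p23 library, and to 0 with cell line as a replicate block, a fit that leaves out the library of p30 titled J-35. Reads at p30 were 0.323 to 0.881 times those at p23 in the 40 members of even depth. The log2 of this ratio and the difference in level had an r of 0.048 and a rho of -0.07 over these bins. Over all 41 members with a p30 mean, r was -0.133 and rho was -0.121. This ratio does not measure the coverage set, which differs between p30 and p23, and the part of that set was not tested.

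The called bins were these 3. Over the CpGs of the fit, chr8:25464492-25464923 (4 CpGs) had 58.6% ± 0.74 (SD, n = 2) at p30 and 15.3% ± 2.39 (SD, n = 3) at p23 (limma adjusted p = 0.0102); its libraries stood at 59.2 and 58.1% at p30 and at 17.2, 16.1 and 12.6% at p23. In S/L p20 it had 11.8, 14.7 and 17.6%, close to its p23 values. The bin at chr15:77743707-77743749 (5 CpGs) had 49.0% ± 10.2 (SD, n = 2) and 13.4% ± 4.98 (SD, n = 3) over the CpGs of the fit (limma adjusted p = 0.0469). Over all its CpGs the p30 libraries had 47.8 and 60% and the p23 libraries 12.8, 25.0 and 10.7%, so the groups did not overlap. The third was the chr16 bin of uneven depth, with 63.2% ± 8.03 (SD, n = 2) and 26.9% ± 2.08 (SD, n = 3) (limma adjusted p = 0.044).

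**Figure D3:**
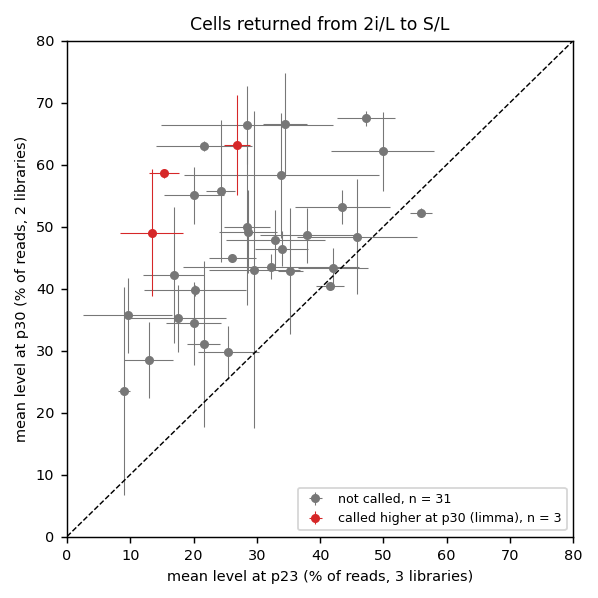
Mean level of the 34 members in the fit at p23 (x axis, 3 libraries) and at p30 (y axis, 2 libraries), in percent of reads, with SD bars and a dashed line of equal levels. Of the points, 32 lie above the line; the 3 red ones were called higher at p30 by limma and include the chr16 bin of uneven depth.

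Among the members in the fit, and with levels over all their CpGs, the highest p30 means were at chr1:133443489-133443940 (5 CpGs), with 66.7 and 72.5%, at chr7:51791085-51791271 (6 CpGs), with 68.4 and 66.7%, and in the uneven chr16 bin. Over the CpGs of the fit alone, chr3:135256024-135256724 had 66.5% and lay above the chr1 bin, at 66.4%, and the uneven bin. Neither of the first 2 was called between p30 and p23. The chromosome 7 bin already had 43.5, 52.3 and 46.0% at p23 and only 14.0 to 16.7% in 2i/L p20. The chromosome 1 bin had 43.1, 35.1 and 20.3% at p23 (limma adjusted p = 0.0791). The lowest were the chr6 bin described above, with 24.1 and 32.8%, chr2:115682195-115682296 (4 CpGs), with 42.6 and 15.8%, and chr5:116533063-116533228 (8 CpGs), with 26.7 and 32.8%. In the chr2 bin the 2 p30 libraries thus differed by more than 20 points. Across 41 bins the p30 libraries had an r of 0.584 and a rho of 0.596 with each other, and mean p30 and mean p23 an r of 0.382 and a rho of 0.344.

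In keratinocytes the bins fell into high and low ones. The mean over the bins was 54.1% in the wild-type library and 54.5% ± 1.33 (SD, n = 2) in the 2i/L libraries, against 11.1 and 10.8% in the other bins low in S/L and 43.2% over all bins and keratinocyte libraries. All 3 libraries were at 50% or more in 24 of 42 bins (44.4% of all bins) and at 30% or less in 12 (46.3%), so that all bins were split too. They were at 80% or more in 8 members (26.9% of all bins) and at 10% or less in 6 (40.5%). The wild-type and mean 2i/L levels had an r of 0.918 and a rho of 0.855 over the 42 bins. The labelled sex differs between these groups.

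Among the members in the fit, the highest wild-type levels were in the chr7 bin (100%, 92.0 to 100, from 44 reads), the chr6 bin (92.7%, 80.6 to 97.5) and chr9:31801629-31801780 (90.5%, 77.9 to 96.2). Among the lowest were the chr11 bin at 84759114 (0 of 33 reads, with a Wilson upper bound of 10.4%), the chr2 bin at 180024368 (1.22%, 0.216 to 6.59) and the chr2 bin at 115682195 (3.33%, 0.591 to 16.7). Of the 3 bins named as highest in a2i/L and PKCi/L p10, those of chr11 and chr2 were thus among the lowest in keratinocytes, while that of chr13 had 75 and 86.7% in the 2i/L libraries and 60% in the wild-type one. The chr15 bin called at p30 had 0, 2.50 and 6.67% in the keratinocyte libraries, and the chr8 bin 65.2, 70.2 and 60%. The median p30 level was 52.3% in the 23 measured bins high in all 3 keratinocyte libraries and 46.0% in the 12 low in all 3, and p30 had an r of 0.224 and a rho of 0.158 with wild-type keratinocytes (n = 41). The median a2i/L p20 level was 66.8% in the high bins and 67.8% in the low ones.

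**Figure D4:**
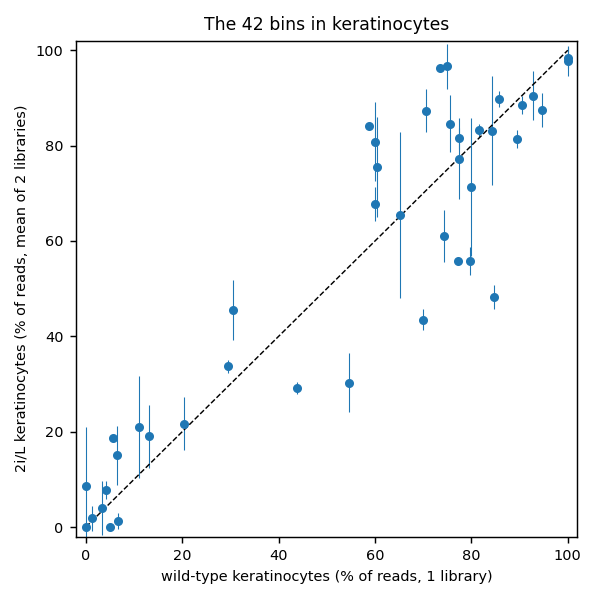
Level of the 42 bins in wild-type keratinocytes (x axis, 1 library) and in 2i/L keratinocytes (y axis, mean of 2 libraries with SD), in percent of reads, with a dashed line of equal levels. Bins lie in a low group and a high group, with 12 at 30% or less and 24 at 50% or more in all 3 libraries.

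The bins lay far from CpG-dense, unmethylated DNA. The nearest bin with at least 10 CpGs and at most 10% methylation in S/L p20 was a median of 53527 bp away, and within 10000 bp in 2 of 42 bins (4.76%). For the other low bins that were not themselves such CpG-dense, unmethylated bins, the median was 11059 bp, with 48.5% within that distance. For bins of any level that were not CpG-dense and unmethylated it was 30063 bp, with 27.5%. For bins with under 10 CpGs and 50% or more in S/L p20 it was 45887 bp, with 14.8%. This position was not tested. Median CpG number ran from 3 to 5 over these classes, and their levels differ as well.

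Neighbouring bins were often higher too. Within 2 bins of a member there were 12 readable neighbours, 10 of them no members, and 7 of these 10 were at least 20 points higher in a2i/L and PKCi/L p20 than in S/L p20, as were 8.22% of all bins. The other 3 were at 10% or less in both. Of the 7, those at chr2:162977004-162977028, chr2:170114030-170114480 and chr5:116532964-116532986 lay just across a bin edge from their members. These members ended at chr2:162976988 and chr2:170113997 and started at chr5:116533063. Such neighbours cannot be counted as independent of the members, which the rule chose. Next to chr5:116533063-116533228, the neighbour at chr5:116532964-116532986 had 17.0% in S/L p20 and 68.8% in the inhibitor libraries. Next to the chr8 bin, the neighbour at chr8:25462325-25462449 had 35.3% in S/L p20, 66.0% in the inhibitor libraries, 31.1% at p23 and 70.2% at p30, the same order of p23 and p30 as the member. Not every neighbour had that order: chr2:162977004-162977028 had 57.3% at p23 and 47.9% at p30. The neighbour of the chr6 bin at chr6:33199461-33199600 stayed at 0.898% in S/L p20 and 0.672% in the inhibitor libraries. The closest pair of members, chr10:33906494-33906610 and chr10:33908583-33908721, lay 1973 bp apart, so they cannot be counted as independent. In keratinocytes they differed: the first had 9.02, 6.45 and 4.26%, the second 82.1, 84.2 and 81.5%.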

How the data were processed

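RRBS was measured in 29 libraries of 15 groups. The authors deposited, per library, a list of CpGs with methylated over all reads as text and a score, checked to be 1000 times the methylated share, rounded down, throughout. BSMAP 2.89 and mouse build mm9 were used, per the submitters' processing notes; filtering and bisulfite conversion efficiency were not stated there. Bisulfite conversion was done on pools of 12 barcoded reactions, per the labels' protocols.

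Reads were summed over bins of 1000 bp. Coordinates run from the first to the last CpG read, in mm9, counted from 1; with no mm9 annotation or genome, no gene or sequence is given. A level in a library outside the rule needed 10 reads. Limma 3.58.1 (R 4.3.3) was fitted on log2((methylated + 1)/(unmethylated + 1)) to the 21 libraries of 8 replicated ESC groups, over 45622 bins with at least 3 CpGs of 5 reads in each; in 11 members this left fewer CpGs, so their tested levels differ from those over all CpGs. Calls needed a Benjamini-Hochberg adjusted p under 0.05 and 20 points, and 34 members were in the fit. The scripts were tested on simulated data. Libraries of a group came from different lines, and p-values measure the spread between them, which may be technical in part. Wilson 95% intervals cover counting error only, since reads carry no molecular identifiers. They treat the summed counts as independent, so they are too narrow where a read covers several CpGs of a bin.

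Members, lists and rules were chosen with earlier results of these data known. Named bins were the 5 largest rule differences, the called bins that did not overlap, the 3 highest and 3 lowest at p30, in the p10 libraries and in wild-type keratinocytes, and those beside the limit; others were named after their values were seen. Cell lines pair the libraries by design, though deviations of the same line correlated with a median of 0.0057 (57 pairs) and of other lines with -0.0018 (116 pairs). Alternatives were thresholds, coverage, bin edges, scale, pseudocount, samples in the fit, cell line as block, each library left out, a quasi-binomial model, and leaving out the bin of uneven depth.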

Additional observations from a re-analysis of the deposited data

How the results depend on the processing

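The number of bins was 42 and became 68 with at least 3 reads per CpG, 7 with 10 reads, 16 with at least 5 CpGs and 2 with limits of 20 and 60%; leaving out each library of the rule gave 41 to 54. Their mean p30 level, 48.3%, was 58.1% with 10 reads and 40.1% with the stricter limits, and 47.4 to 49.2% without either p30 library. The p30 minus p23 count of 3 higher was 0 of 4 members tested with 10 reads, 0 of 2 with the stricter limits, 12 on the percent scale, 1 with a pseudocount of 0.5, 0 with only the 2 groups in the fit, 0 with the replicate block, 12 by the quasi-binomial model and 0 to 1 with a library left out. For p30 minus 2i/L p20, the 32 higher became 3 of 4 with 10 reads and 2 of 2 with the stricter limits, where fewer members were tested, and 28 to 33 with a library left out. For p23 minus 2i/L p20, the 15 became 3 of 4 and 0 of 2, and 14 to 17. The replicate block gave 30 and 15 for these contrasts. The counts lower, and both counts of 2i/L p20 minus 2i/L p10, stayed at 0 in every setting run. The causes were not tested. Depth limits single bins: a member's thinnest rule library held 16 to 124 reads.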
